A study of Homo sapiens with 16 samples.

Results

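Respiratory complex I, the NADH:ubiquinone oxidoreductase of the mitochondrial inner membrane, was followed here through the 47 nuclear genes whose symbols mark them as its subunits or assembly factors (NDUFA, NDUFAB, NDUFB, NDUFC, NDUFS, NDUFV and NDUFAF with a number, pseudogenes left out), of 61906 genes in the tables. They comprise 37 subunits, 8 NDUFAF assembly factors, and NDUFA4 with its paralog NDUFA4L2, which were kept apart because NDUFA4 is now regarded as a subunit of cytochrome c oxidase. All 47 passed the filter on low counts in both cell lines. The study transfected 2 established human lines with 20 nM of an siRNA against HNRNPH1, an RNA-binding splicing regulator, or with a negative control siRNA (siNegative), and took RNA 48 h later. HT-1080 is a fibrosarcoma line, and HEK-293T derives from embryonic kidney and carries SV40 large T antigen. The 4 groups (HEK-293T siNegative, HEK-293T siHNRNPH1, HT-1080 siNegative and HT-1080 siHNRNPH1) hold 3 short-read libraries each, which the labels call biological replicates, and 1 pool of full-length cDNA (IsoSeq) each. All groups received an siRNA with the same lipid reagent, and no untransfected cells are analysed here. Each line is a single established culture.

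Complex I passes electrons from NADH to ubiquinone and pumps protons as it does so. Its N module oxidises NADH, its Q module reduces ubiquinone, and its membrane arm has a proximal and a distal part. Nuclear subunits are made in the cytosol, imported, and joined to the mitochondrially encoded ND subunits with the help of assembly factors that leave the finished enzyme.

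The expected counts of a library summed to 107.7 to 121.0 M (mega) counts in HEK-293T and 27.3 to 32.7 M in HT-1080. HNRNPH1 fell in both lines. In HEK-293T it went from 1107, 1105 and 1121 CPM (the count scaled to a library total of 1 M) to 234.1, 376.2 and 394.3 CPM, a log2 fold change of -1.76 (edgeR adjusted p = 0.00939). In HT-1080 it went from 634.6, 605.8 and 617.2 CPM to 231.5, 231.0 and 228.5 CPM (log2 fold change -1.49, edgeR adjusted p = 6.76e-09). Of the line markers, NEFM was at 252 to 490 CPM in HEK-293T and at most 0.033 CPM in HT-1080, and PLAU was at 1720 to 2860 CPM in HT-1080 and at most 1.2 CPM in HEK-293T. NEFL and CDH2, also listed as HEK-293T markers, did not separate the lines (NEFL 65.8 to 112 CPM in HEK-293T and 79.9 to 111 CPM in HT-1080; CDH2 62.7 to 126 and 82.6 to 113 CPM). PTPRC and CD3E, markers of blood cells, were at most 0.0186 CPM in all 12 libraries, and PAX2, listed as a HEK-293T marker, was low there, at 1.25 to 2.2 CPM.

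Replicate 1 of HEK-293T siHNRNPH1 stood apart from the other 5 libraries of its line in these genes. Against the siNegative mean, the median subunit was 0.80 higher in that library on the log2(CPM + 1) scale, while it was -0.05 and -0.09 in replicates 2 and 3. The assembly factors gave 0.68 in replicate 1 against -0.10 and -0.03. Of the 37 subunits, 34 were higher in replicate 1 than in the mean of replicates 2 and 3, with a median difference of 0.91, and so were 7 of the 8 assembly factors (median 0.61), where the median over all 19966 genes tested was -0.03. This deviation followed the length of the IsoSeq models. Genes whose IsoSeq models have a median exonic length under 1000 nt had a median of 0.93 (531 genes), those of 2000 to 3000 nt -0.05, and those over 4000 nt -0.79. The median model length was 795 nt over the 46 complex I genes with a model and 2752 nt over all genes with one. Within the shortest class, the 26 complex I genes had a median of 0.99, near that of the class. The medians of complex I genes with longer models lay above those of all genes of the same class, by little in the next class. At 1000 to 2000 nt 8 of them had a median of 0.54, against 0.44. At 2000 to 3000 nt 8 had 0.65, against -0.05, and at 3000 to 4000 nt 3 had 0.91, against -0.55. The 1 gene over 4000 nt was at 0.03, against -0.79. A model length is a median over the models of all pools, which carry no read counts. It need not be the length of the transcripts expressed here. The HEK-293T siNegative and siHNRNPH1 pools held a model for 23 and 30 of the 47 genes, and each HT-1080 pool for 46. The part of length in the results was not tested.

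**Figure D1:**
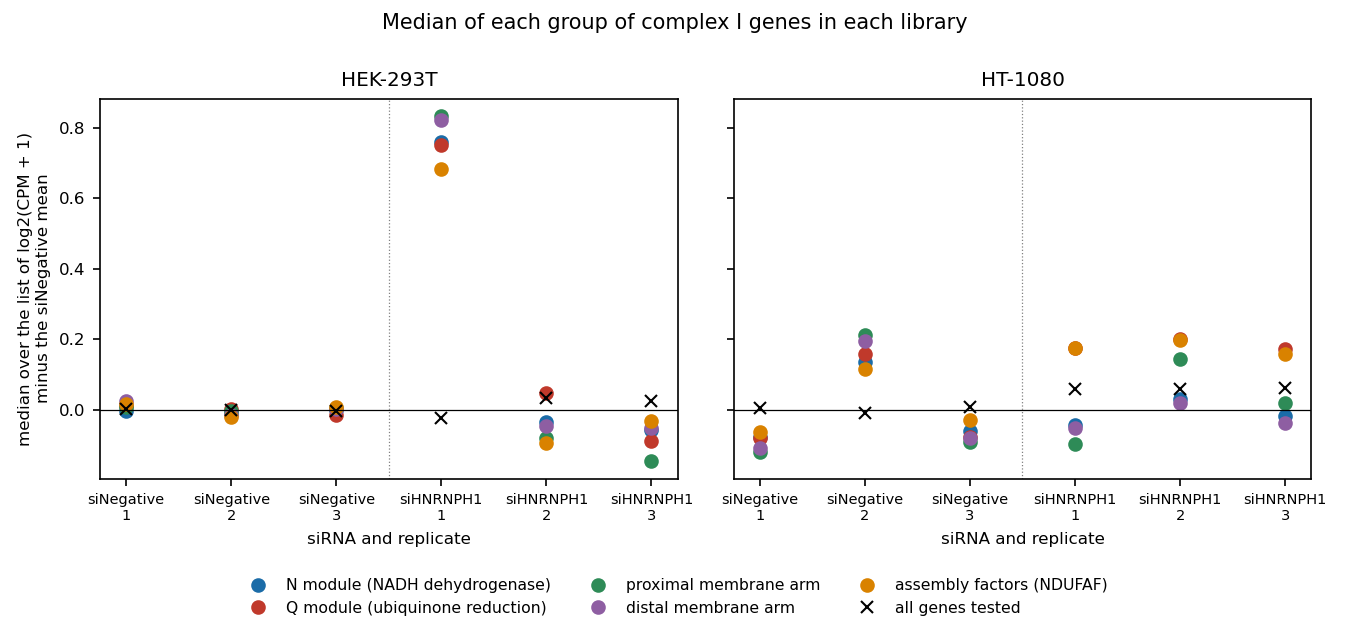
Median of each group of complex I genes in each short-read library, as log2(CPM + 1) minus the siNegative mean of that line; the x axis gives the siRNA and replicate, colours the gene group and crosses all genes tested. HEK-293T siHNRNPH1 replicate 1 is the only HEK-293T library in which the groups lie far above 0, and HT-1080 siNegative replicate 2 lies above the other 2 siNegative libraries of its line.

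**Figure D2:**
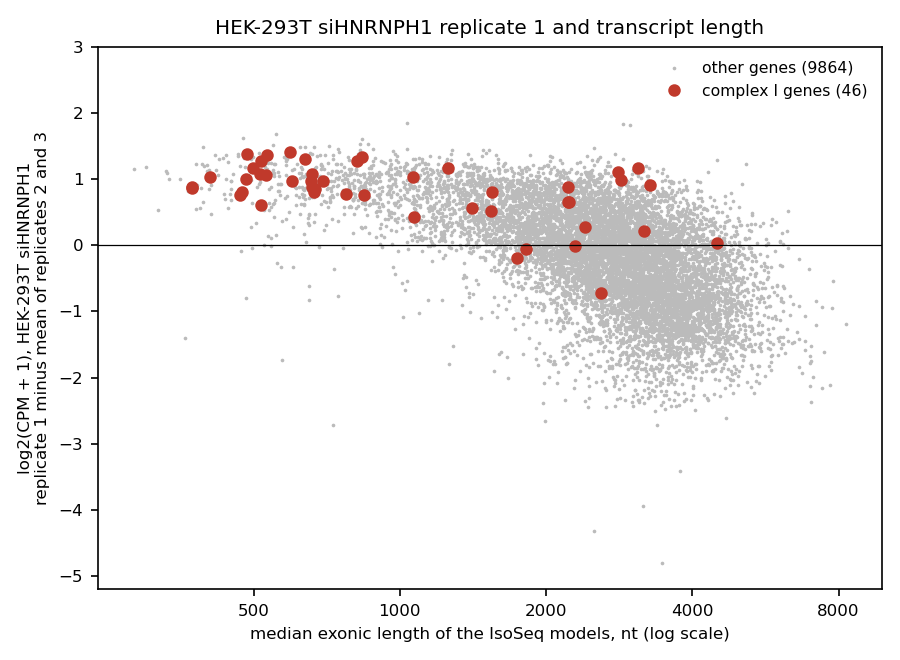
Difference between HEK-293T siHNRNPH1 replicate 1 and the mean of replicates 2 and 3 (y axis, log2(CPM + 1)) against the median exonic length of the IsoSeq models of each gene (x axis, nt, log scale). Red points are the 46 complex I genes with a model and grey points the other genes. The median is 0.93 for genes under 1000 nt and -0.79 for genes over 4000 nt.

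The first comparison asked which complex I genes differed after HNRNPH1 depletion in HT-1080. Of the 37 subunits, 15 were called (edgeR adjusted p under 0.05), 5 higher and 10 lower, and of the 8 assembly factors 7 were called, 4 higher and 3 lower. NDUFA4 and NDUFA4L2 were not called. Of all 16145 genes tested, 65.3% were called, 32.7% higher and 32.6% lower, so the share of subunits called (40.5%) was below that background and the share of assembly factors (87.5%) above it. The groups did not overlap in CPM for 24 of the 47 genes, against 70.5% of all genes. The median log2 fold change of the subunits was -0.09, against 0.01 over all genes. That median rests on 1 library: siNegative replicate 2 had a subunit median of 0.18 against -0.10 and -0.08 in the other siNegative libraries. Without it the median was 0.01, with 12 subunits higher and 11 lower (background 70.4%, of which 34.9% higher and 35.5% lower). The share of subunits called was then 62.2%, nearer that background, and the share of assembly factors 87.5%. A fit of all 12 libraries called no assembly factor in HT-1080.

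In the N module 1 of 8 genes was called in HT-1080, against 65.3% of all genes. Without siNegative replicate 2 it was 3 of 8, against 70.4%. NDUFV1, the subunit that binds NADH and the flavin, stood at 113.2, 130.2 and 108.9 CPM in siNegative and at 97.81, 105.2 and 105.6 CPM in siHNRNPH1. It fell by 0.26 on the log2 scale (SE 0.07, edgeR adjusted p = 0.00933), and its groups did not overlap. The call was lost in 1 of the 6 fits that leave out a library, where the adjusted p reached 0.05. The other N module genes ran up to NDUFS4, an accessory subunit, at 0.08 (edgeR adjusted p = 0.334). NDUFS1, the largest iron-sulfur subunit, stood at 115.2, 108.7 and 115.1 against 114.3, 114.8 and 114.5 CPM, so its groups overlapped.

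In the Q module NDUFA5, an accessory subunit, rose by 0.17 (edgeR adjusted p = 0.0391), but the call held in only 1 of the 6 fits that leave out a library, the one without siNegative replicate 2. NDUFA6 and NDUFA9 fell. NDUFA6 changed by -0.37 (edgeR adjusted p = 0.00686), and NDUFA9, which sits where the Q module meets the membrane arm, by -0.30 (edgeR adjusted p = 0.00147). Both calls held in all 6 of those fits.

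In the proximal membrane arm 1 of 9 genes rose and 3 fell in HT-1080, where 65.3% of all genes were called. Without siNegative replicate 2, 4 were higher and 3 lower, against 70.4% of all genes. NDUFS5, a small disulfide-bonded subunit on the intermembrane space side, went from 123.9, 147.3 and 125.3 CPM to 63.43, 63.98 and 64.93 CPM. All siHNRNPH1 libraries lay below all siNegative libraries, at about the same level. The change was 2.16-fold lower (log2 fold change -1.11, SE 0.07, edgeR adjusted p = 6.83e-07) and was called in all 6 fits that leave out a library. NDUFS5 has 6 listed pseudogenes, all with 0 counts, so none of its reads were assigned to them. Its IsoSeq model in the HT-1080 siNegative pool has 3 exons and spans chromosome 1, positions 39026343 to 39034614 (GRCh38.p13), on the plus strand. NDUFA8, a subunit of the same disulfide-bonded kind, moved the other way, from 27.36, 35.60 and 29.34 CPM to 51.47, 49.37 and 50.36 CPM (log2 fold change 0.64, SE 0.09, edgeR adjusted p = 0.00015). NDUFC2 and NDUFA10 were also called lower, at -0.26 and -0.15 (edgeR adjusted p = 0.00713 and 0.017).

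In the distal membrane arm 2 of 12 genes rose and 4 fell, with and without siNegative replicate 2 (65.3% and 70.4% of all genes called). NDUFB5, a membrane subunit, rose from 86.43, 106.2 and 87.92 CPM to 129.5, 127.4 and 128.0 CPM (log2 fold change 0.39, SE 0.08, edgeR adjusted p = 0.0015). NDUFB6 rose by 0.28 (edgeR adjusted p = 0.0097). NDUFB3 fell from 41.24, 49.21 and 42.35 CPM to 32.57, 32.03 and 31.01 CPM (log2 fold change -0.54, SE 0.07, edgeR adjusted p = 0.000133). The NDUFB3 and NDUFB5 groups did not overlap, and both calls held in all 6 fits that leave out a library. NDUFAB1, the mitochondrial acyl carrier protein, NDUFB9 and NDUFB4 were also lower, at -0.28, -0.24 and -0.23, and the groups of NDUFB4 overlapped.

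The assembly factors split in HT-1080. NDUFAF1, a member of the complex that builds an intermediate of the membrane arm, rose by 0.22 (edgeR adjusted p = 0.0128). NDUFAF5 and NDUFAF7, methyltransferase-like proteins that modify subunits during assembly, rose by 0.24 and 0.21 (edgeR adjusted p = 0.0104 and 0.0354), and NDUFAF6, which acts early in assembly, by 0.29 (edgeR adjusted p = 0.00959). NDUFAF2, which stabilises a late intermediate, fell by 0.43 (edgeR adjusted p = 0.00423). NDUFAF4, which works with NDUFAF3 on the Q module, went from 25.93, 30.98 and 23.98 CPM to 19.90, 19.54 and 19.91 CPM (log2 fold change -0.52, SE 0.09, edgeR adjusted p = 0.0008). NDUFAF8, the partner of NDUFAF5, went from 42.52, 54.02 and 42.15 CPM to 32.30, 35.22 and 32.24 CPM (log2 fold change -0.54, SE 0.10, edgeR adjusted p = 0.000837). The calls of NDUFAF4, NDUFAF6 and NDUFAF8 held in all 6 fits that leave out a library, that of NDUFAF1 in 5 and that of NDUFAF7 in 3. Strand use in counting is not given in the sources used here. NDUFAF6 overlaps CCNE2, which went from 460 to 478 counts per library to 76 to 94, and TP53INP1, which went from 863 to 1112 counts to 1674 to 1815, the same direction as NDUFAF6. NDUFAF7 overlaps PRKD3, which went from 1533 to 1777 counts to 1132 to 1319. Their part in these 2 results was not tested.

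**Figure D3:**
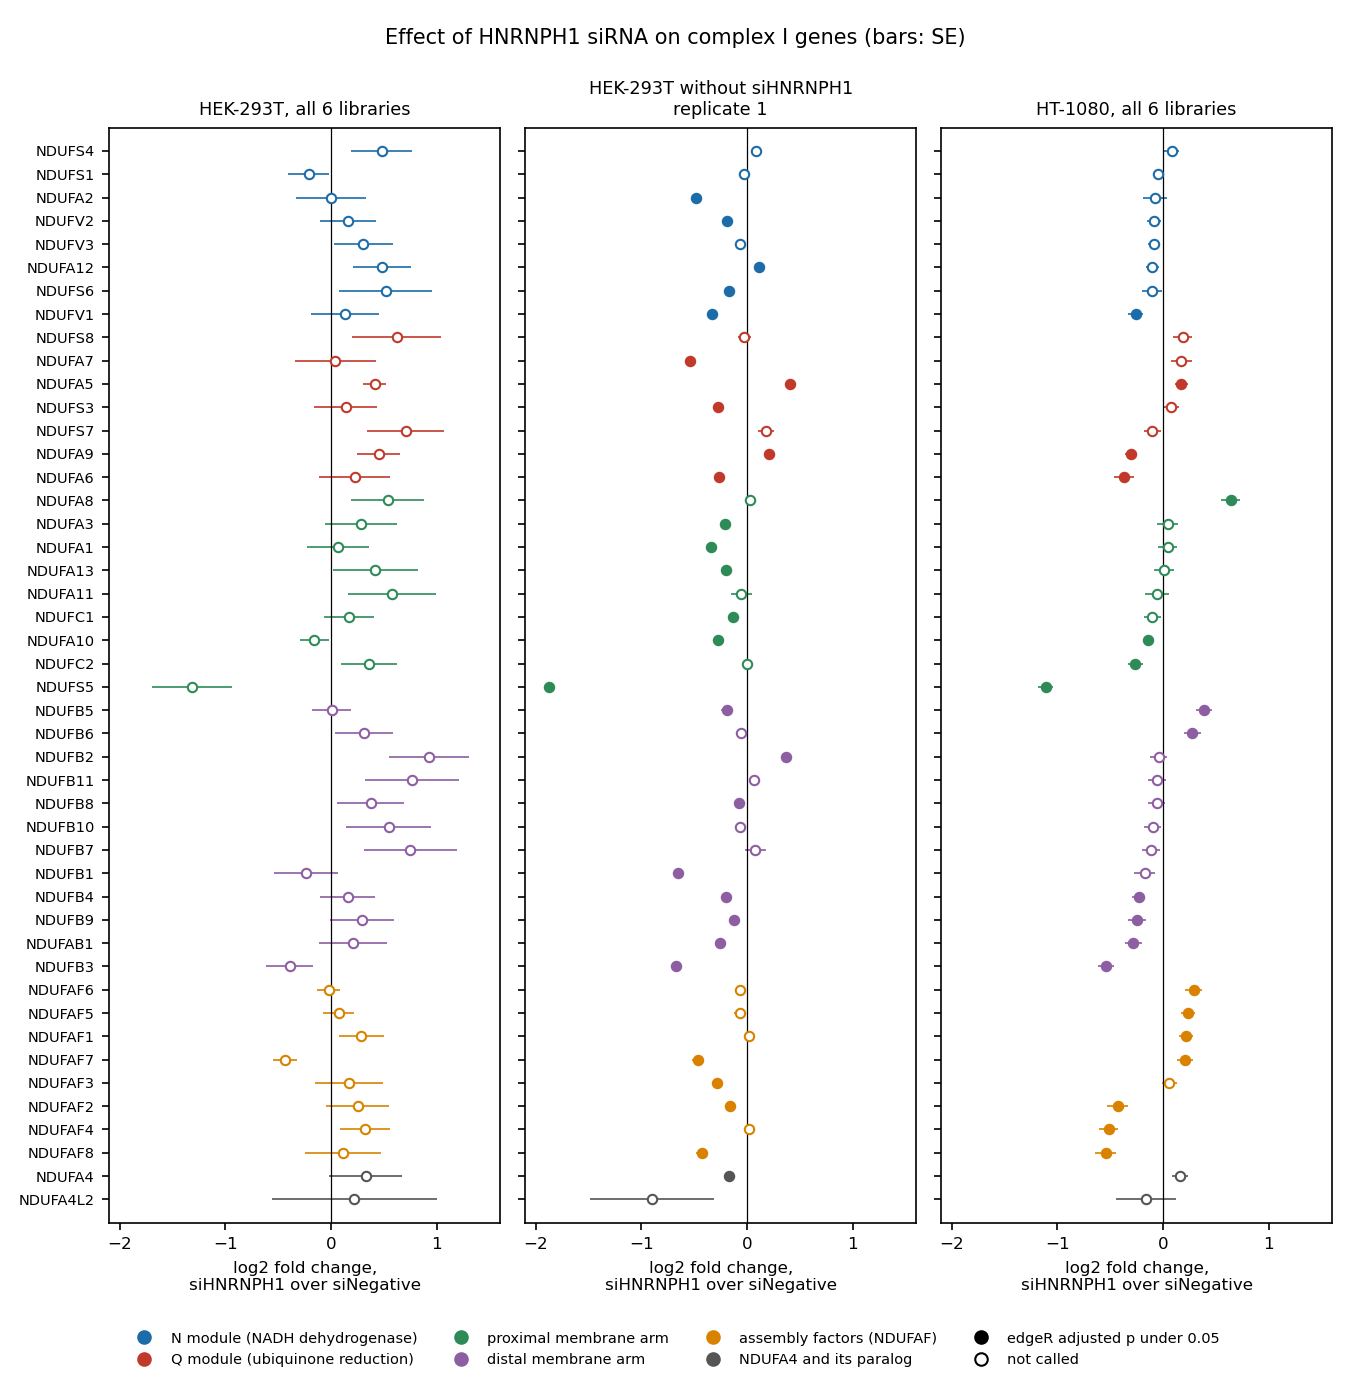
Log2 fold change of 46 complex I genes (x axis; siHNRNPH1 over siNegative, edgeR, bars are SE) for HEK-293T with all 6 libraries, HEK-293T without siHNRNPH1 replicate 1, and HT-1080, grouped by module. Filled points passed an adjusted p of 0.05: 0 in the first panel, and genes with points on both sides of 0 in the other 2, with NDUFS5 the lowest in all 3.

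The same comparison in HEK-293T called 0 of the 37 subunits, 0 of the 8 assembly factors and neither NDUFA4 nor NDUFA4L2 with all 6 libraries by edgeR, where 10.0% of the 19966 genes tested were called, 5.12% higher and 4.88% lower. At an unadjusted p under 0.05 there were 3 of the 37 subunits and 1 of the 8 assembly factors, against 5267 of the 19966 genes tested. DESeq2 called NDUFA5 higher and NDUFS5 and NDUFAF7 lower (background 19.9%, of which 10.4% higher and 9.55% lower). The median log2 fold change of the subunits was 0.29, with 31 positive and 6 negative, against 0.02 over all genes, and that of the assembly factors was 0.14. Without siHNRNPH1 replicate 1 the subunit median changed sign, to -0.13, against -0.01 over all genes. That fit called 25 of 37 subunits, 4 higher and 21 lower, and 4 of 8 assembly factors, all lower, where 61.8% of all genes were called, 30.5% higher and 31.3% lower. The total share of subunits called (67.6%) was thus near the background, and the larger part of the calls were lower. The groups did not overlap in CPM for 12 of the 47 genes with all libraries (43.7% of all genes) and for 31 without replicate 1 (73.9%).

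NDUFS5 was the lowest of the 47 genes in HEK-293T with and without the deviating library. It stood at 127.0, 123.1 and 129.1 CPM in siNegative and at 81.48, 34.86 and 36.74 CPM in siHNRNPH1. The groups did not overlap, and replicate 1 lay between replicates 2 and 3 and the controls. The log2 fold change was -1.32 (SE 0.38, edgeR adjusted p = 0.089) with all libraries, which missed the threshold, and -1.88 (SE 0.04, edgeR adjusted p = 1.58e-20) without replicate 1, a 3.67-fold lower level. NDUFB3, at 44.22, 43.12 and 44.69 CPM in siNegative, was at 44.16 CPM in replicate 1 and at 29.26 and 28.21 CPM in the other siHNRNPH1 libraries (log2 fold change -0.39, edgeR adjusted p = 0.325, with all libraries, and -0.67, edgeR adjusted p = 1.67e-12, without replicate 1).

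NDUFA5 gave the same value with and without the deviating library. It stood at 57.50, 56.64 and 56.91 CPM in siNegative and at 75.10, 75.85 and 81.17 CPM in siHNRNPH1, so the groups did not overlap. The log2 fold change was 0.41 (SE 0.11, edgeR adjusted p = 0.0657) with all libraries and 0.40 (edgeR adjusted p = 1.95e-09) without replicate 1. NDUFB2 had the highest value with all libraries, 0.93 (edgeR adjusted p = 0.186), which was 0.37 without replicate 1 (edgeR adjusted p = 4.79e-09). Its levels were 46.42, 46.08 and 47.03 CPM in siNegative and 141.6, 63.66 and 61.50 CPM in siHNRNPH1, so replicate 1 was more than the others above the controls. NDUFS7, which carries the last iron-sulfur cluster before ubiquinone, was the highest of the Q module at 0.71 (0.18 without replicate 1), and neither value was called.

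Several other genes changed sign with that library. NDUFV1 was at 0.13 with all libraries and fell by 0.33 without replicate 1 (edgeR adjusted p = 2.34e-08), NDUFA6 at 0.22 and -0.26, NDUFS6, a zinc-binding subunit, at 0.52 and -0.17, and NDUFAF8 at 0.11 and -0.43. NDUFAF7 did not: at 26.95, 26.13 and 26.21 CPM in siNegative and 19.79, 18.69 and 21.08 CPM in siHNRNPH1, it was at -0.44 with all libraries (edgeR adjusted p = 0.0621) and -0.47 without (edgeR adjusted p = 5.48e-08). NDUFA4 was at 0.33 and, without replicate 1, -0.17 (edgeR adjusted p = 0.00127). NDUFA4L2 held only 4 to 29 counts per library, too few for a difference to be detectable.

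**Figure D4:**
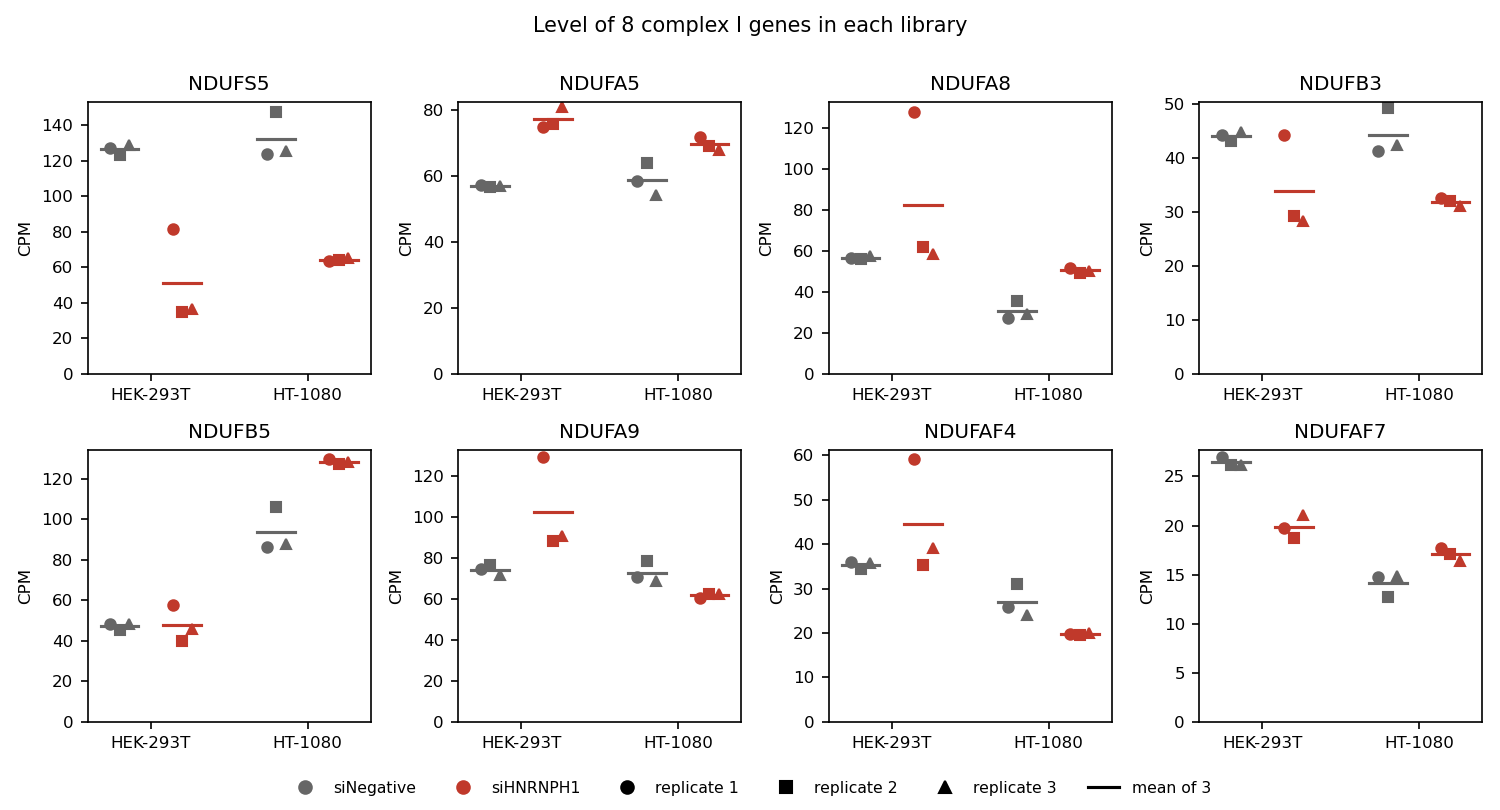
CPM of 8 complex I genes in each short-read library (y axis from 0; grey siNegative, red siHNRNPH1; symbols are replicates and horizontal lines the mean of 3). NDUFS5 is lower after siHNRNPH1 in both lines, NDUFA8 and NDUFB5 are higher in HT-1080, and replicate 1 of HEK-293T siHNRNPH1 lies above replicates 2 and 3 for NDUFS5, NDUFA8, NDUFB3, NDUFB5, NDUFA9 and NDUFAF4.

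A cell line by siRNA interaction, fitted to all 12 libraries, tested the difference between the effects in HT-1080 and HEK-293T, and called 4 of the 47 genes (19.0% of all genes). Positive values mean a higher log2 fold change in HT-1080. NDUFAF7 had a difference of 0.57 (edgeR adjusted p = 0.014), NDUFA9 of -0.83 (0.0316) and NDUFAF4 of -0.92 (0.0485), which were 0.63, -0.56 and -0.58 without replicate 1. NDUFA5 came next, at -0.31, and was not called (edgeR adjusted p = 0.107). For NDUFS5 the difference was 0.12 (edgeR adjusted p = 0.921) with all libraries and 0.71 (edgeR adjusted p = 3.9e-06) without replicate 1, where the HEK-293T fall was the larger. Without that library 22 of the 47 genes were called, against 49.0% of all genes.

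The share of each gene held by its transcripts was compared next, as a percent of the expected counts of the gene. By limma diffSplice, usage differed for 8 of the 43 complex I genes tested in HT-1080, against 21.3% of all genes, and for 2 of 44 in HEK-293T, against 9.58%. Without HEK-293T siHNRNPH1 replicate 1 the latter count was 29 of 44, against 41.6%. For 1 transcript, an exact permutation of 3 libraries against 3 cannot go below p = 0.1, so only the diffSplice values are given.

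NDUFAF1 was called in both lines. Its transcript ENST00000260361.9 held 9.56%, 8.16% and 2.97% of the gene in HEK-293T siNegative and 31.8%, 35.6% and 36.1% in siHNRNPH1, a rise of 27.6 points (limma diffSplice adjusted p = 0.000256, and 3.98e-07 without replicate 1). In HT-1080 it went from 28.7%, 40.1% and 45.7% to 66.2%, 56.6% and 65.3%, a rise of 24.5 points (limma diffSplice adjusted p = 0.017). The groups did not overlap in either line. The transcript called lower was not the same in the 2 lines. In HEK-293T ENST00000560978.2 fell from 40.5%, 41.2% and 46.6% to 12.1%, 21.1% and 13.5% (limma diffSplice adjusted p = 0.00246, and 3.65e-05 without replicate 1). In HT-1080 ENST00000676906.1 fell from 24.5%, 25.2% and 16.3% to 1.47%, 1.67% and 1.09% (limma diffSplice adjusted p = 0.0418), at 5 to 110 counts per library. It was not lower in HEK-293T (13.8%, 11.7% and 9.22% against 24.7%, 11.4% and 17.2%). ENST00000560978.2 also lay lower in HT-1080, at 22.4%, 16.2% and 19.8% against 13.2%, 14.9% and 12.8%. Those groups did not overlap, but the transcript was not called there (limma diffSplice adjusted p = 0.427). A difference in usage between the lines was not tested. In HEK-293T the NDUFAF1 gene total was not called (17.44, 16.98 and 17.43 CPM against 27.45, 18.23 and 18.27 CPM, groups that did not overlap). Its log2 fold change was 0.29 with all libraries (edgeR adjusted p = 0.447) and 0.02 without replicate 1 (edgeR adjusted p = 0.729). The HEK-293T usage call held in all 6 fits that leave out a library and was lost by edgeR diffSpliceDGE. The HT-1080 call was lost in 3 of those 6 fits and held by diffSpliceDGE.

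NDUFV3, a small N module subunit known as a short and a long protein that differ by a large exon, shifted in HT-1080 while its gene total was not called (48.06, 48.41 and 45.59 CPM against 46.85, 48.11 and 45.20 CPM). Its transcript ENST00000354250.7 went from 30.6%, 25.3% and 27.9% to 38.5%, 45.0% and 39.8% (limma diffSplice adjusted p = 0.00172), and ENST00000340344.4 from 29.5%, 35.8% and 31.8% to 22.5%, 23.9% and 23.7% (adjusted p = 0.0212). The gene call held in all 6 fits that leave out a library and was lost by edgeR diffSpliceDGE. In HEK-293T ENST00000340344.4 went from 60.6%, 60.9% and 59.0% to 39.0%, 33.8% and 32.7%, groups that did not overlap, but missed the threshold with all libraries (limma diffSplice adjusted p = 0.0887, and 4.54e-11 without replicate 1). ENST00000354250.7 was at 14.2%, 15.6% and 15.3% there and at 10.9%, 28.0% and 28.0% after siHNRNPH1, where replicate 1 lay below the controls and the others above. The IsoSeq models show an exon of 1095 nt at chromosome 21, positions 42903182 to 42904276 (GRCh38.p13, plus strand). It is in 2 of 2 models in each HEK-293T pool, in 2 of 3 in the HT-1080 siNegative pool and in 4 of 5 in the HT-1080 siHNRNPH1 pool. Models carry no read counts, so these are not shares of expression. Which of the listed transcripts carry that exon was not determined here.

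**Figure D5:**
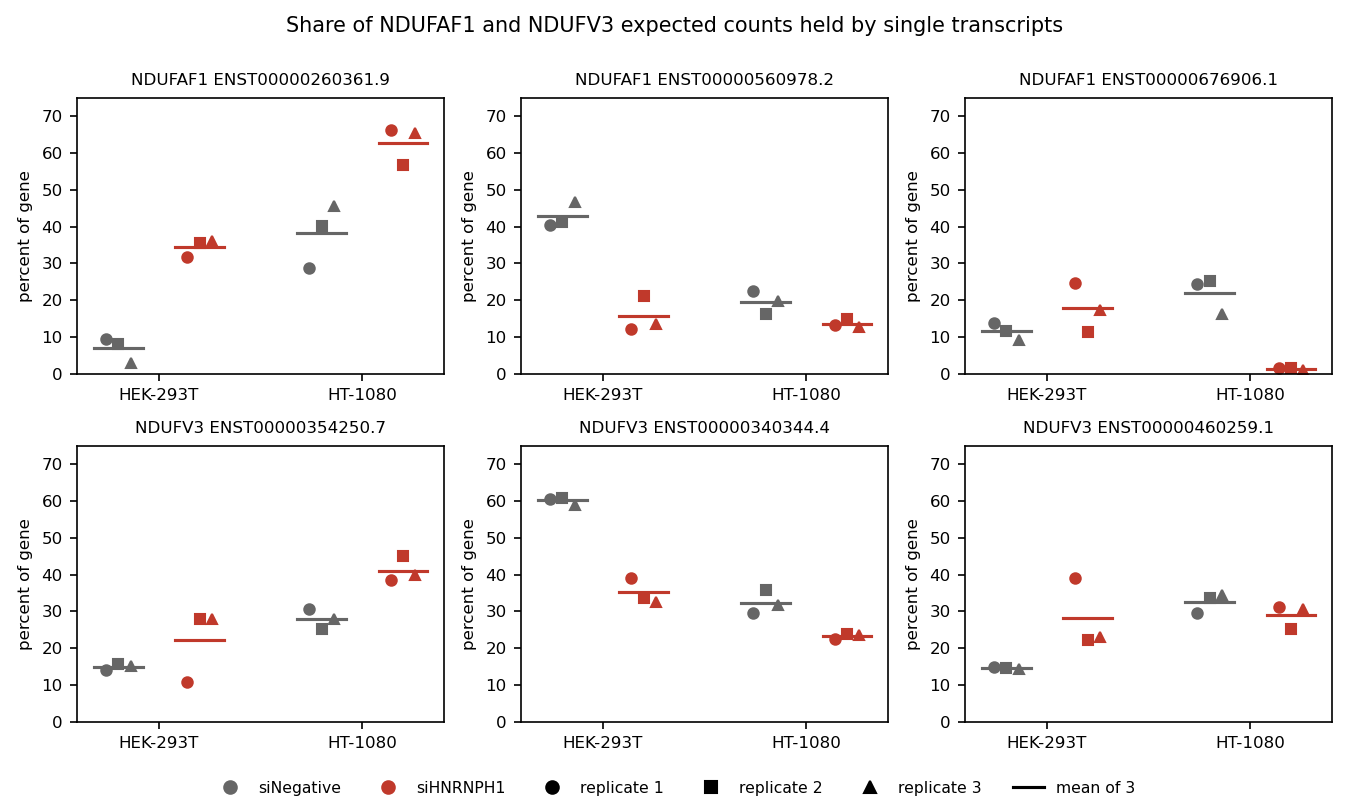
Percent of the expected counts of NDUFAF1 (top) and NDUFV3 (bottom) held by 3 transcripts each, per short-read library (grey siNegative, red siHNRNPH1; symbols are replicates and lines the mean of 3). ENST00000260361.9 of NDUFAF1 is higher in all siHNRNPH1 libraries of both lines, and ENST00000340344.4 of NDUFV3 is lower in all of them.

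Of the other genes called in HT-1080, NDUFAF8 moved by few points. Its transcript ENST00000573173.1 went from 0.81%, 1.09% and 1.13% to 5.53%, 5.05% and 5.41% (limma diffSplice adjusted p = 0.00419), a minor part of the gene in both groups. That gene call held in all 6 fits that leave out a library and was lost by edgeR diffSpliceDGE. ENST00000436115.6 of NDUFS7 went from 3.30%, 2.55% and 2.99% to 9.37%, 7.73% and 9.49% (adjusted p = 0.0133), and from 6.19%, 8.05% and 7.43% to 9.34%, 22.6% and 25.3% in HEK-293T (limma diffSplice adjusted p = 0.259, and 3.71e-05 without replicate 1). The NDUFS7 call in HT-1080 held in 1 of those 6 fits, without siNegative replicate 2, and was lost by diffSpliceDGE. In NDUFAF6 the gene value missed the threshold in both lines. Its transcript ENST00000697359.1 went from 25.2%, 19.5% and 21.1% to 41.4%, 34.8% and 30.2% in HT-1080 (limma diffSplice adjusted p = 0.0241 for the transcript and 0.0521 for the gene) and from 22.4%, 25.7% and 24.0% to 4.31%, 18.4% and 13.8% in HEK-293T (limma diffSplice adjusted p = 0.0929 and 0.192, and 0.0151 and 0.0253 without replicate 1). In HEK-293T NDUFB3 was the second gene called, through ENST00000682325.1, which went from 1.16%, 1.24% and 1.92% to 3.62%, 5.50% and 6.87% (limma diffSplice adjusted p = 0.0124, and 2.76e-06 without replicate 1). The NDUFB3 call was lost in 4 of the 6 fits that leave out a library, those without siHNRNPH1 replicate 3 or any siNegative replicate, and by diffSpliceDGE.

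Complex I genes outside the NDUF names were set beside these. Of 11 other assembly factors, 1 was higher and 6 lower in HT-1080 (65.3% of all genes called; 4 higher and 7 lower without siNegative replicate 2, against 70.4%), from -0.80 for TMEM70 to 0.48 for TMEM186. In HEK-293T 1 of the 11 was called with all libraries (background 10.0%) and 9 without siHNRNPH1 replicate 1 (61.8%). The 1 gene was NUBPL, which helps insert iron-sulfur clusters into complex I. It went from 31.88, 34.21 and 33.27 CPM to 16.82, 19.21 and 21.22 CPM (log2 fold change -0.82, SE 0.12, edgeR adjusted p = 0.0159). Of the 7 mitochondrially encoded ND subunits, 3 were lower in HT-1080 (2 higher and 3 lower without siNegative replicate 2). In HEK-293T with all libraries 0 were called by edgeR. An unadjusted p under 0.05 was reached by 2 of them, and by 5267 of the 19966 genes tested. DESeq2 called MT-ND4 and MT-ND5 lower there, where it called 19.9% of all genes. Without siHNRNPH1 replicate 1, 1 of the 7 was higher and 4 lower in HEK-293T. These shares stand against the same backgrounds.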

How the data were processed

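The authors deposited, per the submitters' processing notes and the file headers, RSEM expected counts per transcript in 1 table per line, on GRCh38.p13; the RSEM version, aligner, annotation release and strand use are not given in the sources used here. The authors' IsoSeq files list exon positions of collapsed transcript models with no counts. Expected counts were summed per gene identifier and rounded, 0 value columns being unmatched to a sample. Genes past edgeR's filter (edgeR 4.0.16 in R 4.3.3) were scaled by TMM and tested in the 6 libraries of a line with the robust quasi-likelihood test, two-sided, with Benjamini-Hochberg adjustment over all genes and a threshold of 0.05. The interaction was fitted to all 12 libraries. Transcript usage was tested with limma diffSplice (limma 3.58.1, voom weights, Simes p per gene). CPM is the count over the library total. Length was the median exonic length of a gene's IsoSeq models. Steps were tested on simulated data. Alternatives were DESeq2 1.42.0, other scalings and filters, a replicate block, a shared fit of all libraries, edgeR diffSpliceDGE and leaving out each library.

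Genes were grouped by module. Named were the highest and lowest of each module in each line, genes called in both lines, the 5 with the smallest interaction p, and those with a transcript past the threshold whose share moved by at least 10 points; NDUFA10, NDUFAB1, NDUFAF2, NDUFAF5, NDUFB4, NDUFB6, NDUFB9 and NDUFC2, called in HT-1080, and NUBPL were added after their values were seen. Members and lists were chosen with earlier results of these data known. Overlapping neighbours came from the gene positions of the RefSeq table of GRCh38.p14. The same positions assigned IsoSeq models to genes on the same strand. Complex I genes with no listed strand were searched on both strands, and other genes with none were left out of that step. Of the 47 genes, 20 overlap another gene. Listed pseudogenes exist for 21, and held at most 3.31% of the member's counts. Results of 1 gene are not reported here; it stays in the counts and medians of its lists.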

Additional observations from a re-analysis of the deposited data

Results flagged for a closer look

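For 3 genes described here the edgeR interaction test called a difference in siRNA effect between HT-1080 and HEK-293T, given as the log2 fold change in HT-1080 minus that in HEK-293T: NDUFAF7 (0.57), NDUFA9 (-0.83) and NDUFAF4 (-0.92). All 3 differences were also called without HEK-293T siHNRNPH1 replicate 1, the library that stood apart. For NDUFA9 and NDUFAF4 the size was smaller without it, and the part of that library in these 2 results was not tested. With a replicate block the interaction test called only 1 complex I gene, so the 3 calls did not all hold there. No group has more than 3 libraries, so no single library was tested as an outlier.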

How the results depend on the processing

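In HEK-293T, 1302 genes were called with no filter on low counts, 0 with the replicate block, 3982 by DESeq2 and 4551 in a fit of all 12 libraries, against 1997. DESeq2 then called 2 of 37 subunits and 1 of 8 assembly factors (19.9% of all genes), and the fit of all libraries 4 and 1 (4551 of 21276 genes). That fit called 6237 of 21276 genes, 3 subunits and 0 assembly factors in HT-1080, where the subunit median was -0.018 with scaling by library size alone. By edgeR diffSpliceDGE, usage was called for 704 of 13014 genes (1 of 44 complex I genes) in HEK-293T and 584 of 10780 (1 of 43) in HT-1080. With transcripts of at least 5% of their gene it was called for 944 of 10629 genes (1 of 31 complex I genes) in HEK-293T. In HT-1080 that count was 2142 of 8926 (4 of 31). Leaving out 1 library gave, in HEK-293T, 0 to 12557 genes, 0 to 25 subunits, 0 to 4 assembly factors and a subunit median of -0.13 to 0.46. In HT-1080 it gave 9535 to 11625 genes, 12 to 23 subunits, 4 to 7 assembly factors and a median of -0.14 to 0.01. Usage was called for 360 to 5571 genes and 1 to 29 complex I genes in HEK-293T, and for 1540 to 2242 genes and 3 to 9 complex I genes in HT-1080. Without HEK-293T siHNRNPH1 replicate 1 the interaction called 22 of the 47 complex I genes (49.0% of all genes). HEK-293T log2 fold changes were positive for 39 of the 47 with all libraries and for 12 without that replicate. Of the genes added after their values were seen, NDUFAB1, NDUFAF2, NDUFAF5, NDUFB4, NDUFB6 and NDUFB9 changed sign. Among the complex I genes named by rule, 9 HEK-293T values changed sign. NDUFA11, NDUFA4L2 and NDUFV3 were not called in that fit; over all fits that leave out 1 library the other 6 ran from -0.175 to 0.529 (NDUFA4), -0.262 to 0.414 (NDUFA6), -0.426 to 0.326 (NDUFAF8), -0.191 to 0.132 (NDUFB5), -0.172 to 0.777 (NDUFS6) and -0.33 to 0.324 (NDUFV1). Same-numbered libraries correlated at -0.002 to 0.098, and differently numbered ones at -0.096 to 0.063. With 3 libraries per group these small values do not settle whether replicate numbers pair the libraries. With the replicate block the interaction called 1 of the 47 complex I genes. HEK-293T usage was then called for 4 of 44 complex I genes and for 1087 of 13014 genes. A correction for gene length was not run, because only 49.6% of the HEK-293T genes tested had an IsoSeq length. The cause of these differences was not tested. NDUFA4L2, with 4 to 29 counts per library, is limited by its low counts.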

Other observations

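The other respiratory complexes were counted beside complex I. In HT-1080, of 9 complex III genes 0 were higher and 6 lower, with a median log2 fold change of -0.26, from -0.57 for UQCRC1, a core subunit, to 0.10 for UQCRC2, where 65.3% of all genes were called. Of 10 complex IV genes 1 was lower (COX8A, -0.24), and of 17 ATP synthase genes 4 were lower, down to -0.47 for ATP5MC1, which encodes the rotor ring subunit. Of the 4 complex II genes SDHB, an iron-sulfur subunit, was the highest at 0.39 and SDHD the lowest at -0.16. These counts rest in part on siNegative replicate 2: without it 3 complex III genes were higher and 6 lower (median -0.15), 2 complex IV genes higher and 3 lower, and 8 ATP synthase genes higher and 4 lower, against 70.4% of all genes. In HEK-293T with all libraries 0 genes of complexes II to V were called by edgeR, against 10.0% of all genes. An unadjusted p under 0.05 was reached by 1 complex II and 1 ATP synthase gene, and by 5267 of the 19966 genes tested. DESeq2 called SDHD lower and ATP5F1D higher, where it called 19.9% of all genes. Without siHNRNPH1 replicate 1, 3 of 4 complex II, 7 of 9 complex III, 9 of 10 complex IV genes and 16 of 17 ATP synthase genes were lower and ATP5F1D was higher, where 61.8% of all genes were called. Among 11 regulators of mitochondrial genes, MYC was the highest in HEK-293T, from 52.42, 54.72 and 55.91 CPM to 145.5, 114.5 and 105.6 CPM (log2 fold change 1.15, edgeR adjusted p = 0.0189). In HT-1080 MYC was the lowest of that list, from 43.14, 42.10 and 41.95 CPM to 20.21, 21.80 and 21.70 CPM (log2 fold change -1.07, edgeR adjusted p = 1.55e-07). The effect on MYC in HT-1080 minus that in HEK-293T was -2.29 (edgeR interaction, adjusted p = 4.38e-05), and -2.08 without HEK-293T siHNRNPH1 replicate 1.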
